A study of Saccharomyces cerevisiae with 160 samples.

Results

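The cytosolic ribosomal protein genes of budding yeast (Saccharomyces cerevisiae) were followed over time in synchronized cells that arrest in the cell cycle. Members were all probe sets whose gene symbol begins with RPL (large ribosomal subunit) or RPS (small subunit) followed by a number and an optional copy letter A, B or C. They were 142 of the 5716 gene probe sets on the array, 77 for RPL and 65 for RPS genes, and stood for 122 genes. Of these probe sets, 113 were designed to match 1 gene (suffix _at), and 29 were of the types that may also match other transcripts, such as the paralog (23 with _s_at and 6 with _x_at). For 9 genes, among them RPL4A and RPL41A, only such a shared probe set was measured.

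Ribosomal protein genes encode the protein parts of the ribosome and are among the most strongly expressed genes of growing yeast. Most exist as a pair of copies, A and B, left by a genome duplication, which encode identical or nearly identical proteins from separate promoters. The transcription factors Rap1, Fhl1, Ifh1 and Sfp1 drive them together in response to nutrient signals, and their transcripts fall when cells meet stress or slow their growth.

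The study asked which transcripts keep oscillating when a checkpoint or a missing regulator stops the cell cycle. There were 160 arrays from 9 cultures of 5 strains in the MATa background BF264-15DU, all synchronized in G1 by elutriation and grown at 30 degrees with 1 M sorbitol. Strain cdc20 has CDC20 disrupted (cdc20::LEU2) and a copy behind a galactose promoter (Pgall-CDC20::ADE2), and is also bar1 with the tubulin marker CFP-TUB1::URA3. In dextrose it loses Cdc20, which is needed to leave metaphase (2 cultures, 14 and 18 arrays). Strain cdc8 (cdc8-ts) cannot complete DNA replication at this temperature and holds the replication checkpoint (2 cultures, 16 arrays each). Strain cse4 expresses a mutant centromeric histone from a galactose promoter (Pgal-cse4-353::TRP1), holds the spindle checkpoint and carries bar1 and CFP-TUB1::URA3 as well (2 cultures, 18 arrays each). It grew in YEP galactose and the other 4 strains in YEP dextrose, so carbon source and cse4-353 cannot be told apart. Strain cdc8cdc20 combines cdc8ts with the alleles of strain cdc20 (1 culture, 20 arrays), and strain rad53 adds the checkpoint kinase allele rad53-1 to these (2 cultures, 20 arrays each). Replicates are separate elutriated cultures, and arrays of 1 culture are repeated looks at the same cells.

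Values are model-based probe set intensities, normalized between arrays and therefore relative to the other transcripts on an array. The median intensity of the gene probe sets ranged from 1020 to 1284 over the 160 arrays. Strain labels were checked on the transcripts they bear on. CSE4 stood at 14.55 ± 0.02 (log2 intensity, mean ± SD, n = 2) in arrested cse4 cells against 8.35 to 8.91 in the other strains. GAL1 stood at 14.65 ± 0.11 there against 8.17 to 9.28, and BAR1 at 10.80 ± 0.01 in cdc8 against 6.33 to 7.24. CDC20 did not mark strain cdc20 clearly (8.78 ± 0.07 against 8.91 to 9.47). The cse4 replicate 1 arrays at 150, 180 and 270 min stood apart from their neighbours in time: the SD of the log2 step over all gene probe sets was 0.362 to 0.480 at the 6 steps around them and 0.0927 to 0.154 at the later steps of that culture. Without these 3 arrays every count of called members stayed within 1.5 times its value. The labelling kit used for each array is not given in the sources used here, and its part in the results was not tested.

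As a group the members were bright. Their median level was 14.12 on the log2 scale, against 10.13 for all gene probe sets, and 135 of the 142 were above a mean of 13, a level that 261 other probe sets also passed. The dimmest member was RPL41A (YDL184C, shared probe set, 7.64), which encodes the smallest ribosomal protein. The brightest stood at 14.85. Levels of different probe sets depend on their probes, so amounts of transcript are compared below only within a probe set.

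In each of the 9 cultures the members rose or stood high early and then declined. The profile is given as the median over the 142 members of the log2 intensity, each centred on its own mean in the culture. The high of the cdc20 cultures was 0.09 (100 min) and 0.18 (60 min), and the later low came on the last array (300 min, -0.14, and 360 min, -0.15). Both cdc8 cultures peaked at 80 min (0.19) and reached later lows of -0.23 (200 min) and -0.20 (220 min), before the last arrays at 260 min stood at -0.11 in both. In cse4 it was highest at 105 min (0.15 and 0.16) and lowest at 345 min (-0.17 and -0.15), an array whose description in replicate 2 carries another strain's wording and which lies outside the tested windows. In rad53 it was highest at 72 min (0.11) and 90 min (0.15), lowest at 216 min in both (-0.09 and -0.11), and at -0.05 and -0.06 at 360 min. In cdc8cdc20 it went from 0.21 at 36 min to -0.17 at 360 min. From the high to the later low the median member thus lost between 13.1% (rad53 replicate 1) and 25.4% (cdc8 replicate 1) of its intensity. The profiles of the 2 cultures of a strain correlated at r = 0.95 in cdc8, 0.91 in cse4, 0.77 in rad53 and 0.76 in cdc20 over 14 to 20 shared times, a description over arrays that share a culture. In these cultures a smaller share of cells with high ribosomal protein mRNA and less mRNA per cell cannot be told apart.

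**Figure D1:**
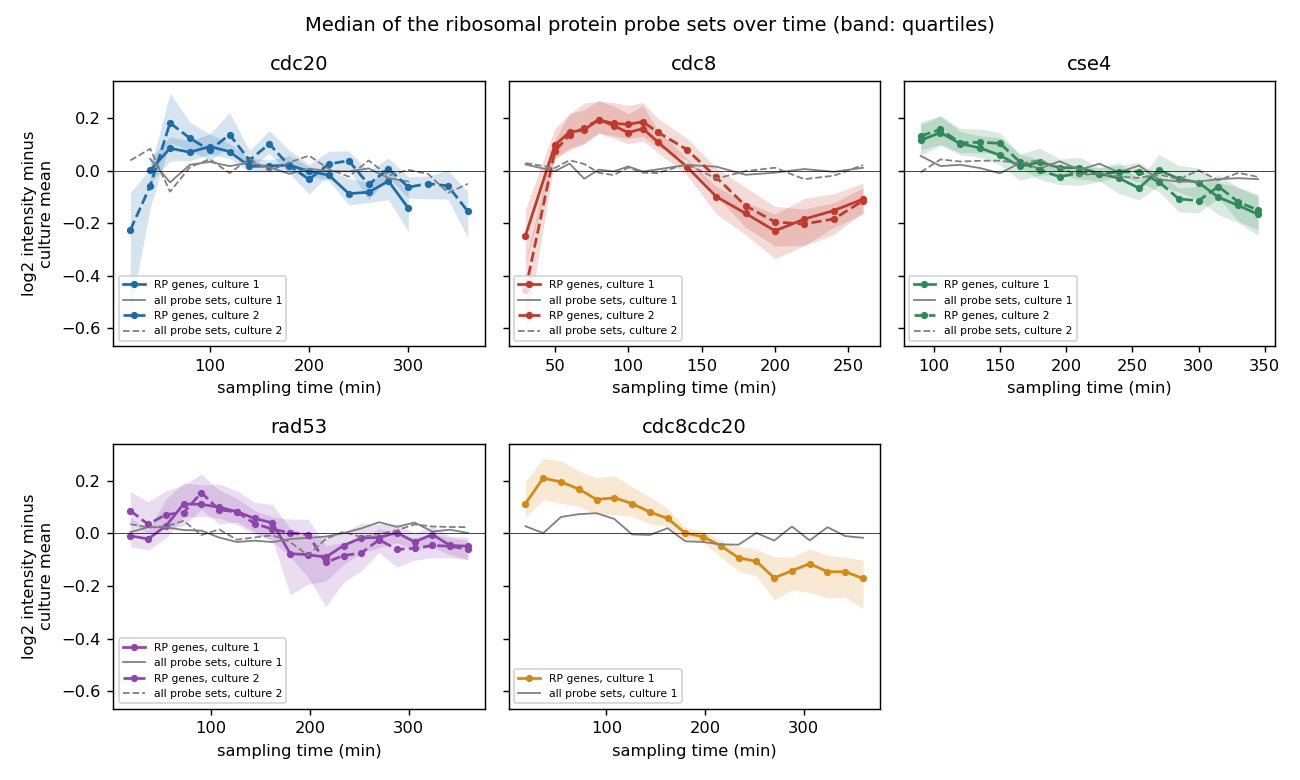
Median over the 142 ribosomal protein probe sets of log2 intensity centred within each culture (y axis) against sampling time in min (x axis), by strain, with quartiles shaded and the median of all gene probe sets for reference. In each culture the line falls from its early high, and in cdc8 and rad53 it turns up again after 200 to 220 min.

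The first arrays of cdc8 were low. At 30 min the centred median was -0.25 and -0.45 in the 2 cultures, and 140 of the 142 members were higher at 60 than at 30 min in both of them, where 46.7% of all gene probe sets were. The median rise was 0.38 and 0.61 on the log2 scale. In cdc20 replicate 2, the other culture with an array before 40 min that began low (20 min, -0.23), 140 members were higher at 60 than at 20 min, with a median of 0.41. These arrays lie in the early window of cdc8 used next, and their effect on each count is given there.

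The change during arrest was tested as the difference between an arrest window and an early window in each culture. The early windows were 40 to 80 min in cdc20, 30 to 70 min in cdc8, 90 to 120 min in cse4 and 36 to 72 min in rad53 and cdc8cdc20. The arrest windows were 200 to 280, 180 to 260, 255 to 330 and 198 to 270 min in the same order. A member was called at an adjusted p of at most 0.05 (limma, Benjamini-Hochberg over all 5716 gene probe sets). In cdc8, 53 of 142 members (37.3%) were called lower and 0 higher, where 25.5% of all gene probe sets were lower and 25% higher. In cse4, 63 (44.4%) were lower and 0 higher, beside 33.1% and 29.3% of all. In cdc8cdc20, 67 (47.2%) were lower and 0 higher, beside 29.8% and 23.7%. Strain cdc8cdc20 has no replicate culture, so the spread in its test came wholly from the other strains. Its counts and adjusted p, here and below, rest on the assumption that it varies like them. In rad53, 50 (35.2%) were lower and 0 higher, beside 32.2% and 26.4%, so the lower share was near that of all probe sets. In cdc20, 17 (12.0%) were lower and 2 higher, beside 31.4% and 31.6%, so both shares were below those of all probe sets.

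The typical change was small. In simulated data with 200 changed probe sets the test recovered 0% of changes of 0.25 (log2). Many more probe sets were called in the real data, where the cutoff was therefore looser, so this share does not carry over. A member not called may still have changed by a small amount. The median over the members was -0.09 in cdc20, -0.17 in cdc8, -0.19 in cse4, -0.10 in rad53 and -0.28 in cdc8cdc20 on the log2 scale, and the median over all gene probe sets lay between -0.10 and 0.003. The medians of RPL and RPS members were -0.09 and -0.09 in cdc20, -0.18 and -0.16 in cdc8, -0.20 and -0.17 in cse4, -0.13 and -0.07 in rad53, and -0.28 and -0.27 in cdc8cdc20. Shared probe sets had smaller median changes than probe sets of 1 gene. In rad53, 1 of 29 shared probe sets was called lower, with a median of -0.04, against 49 of 113, with a median of -0.15. In 3 strains the change also went with the level. The 7 members with a mean level under 13 had median changes of -0.85 in cdc8, -0.76 in rad53 and -0.82 in cdc8cdc20, against -0.16, -0.10 and -0.27 for the 135 brighter ones. In cdc20 and cse4 the gap was small (-0.15 against -0.09 and -0.25 against -0.18). Across the 142 members level and change correlated at r = 0.60 in cdc8, 0.37 in rad53, 0.65 in cdc8cdc20, 0.21 in cdc20 and 0.04 in cse4, and the part of signal level in the size of the changes was not tested. The 261 other probe sets above 13 had median changes of 0.02 to 0.15 in the 5 strains.

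**Figure D2:**
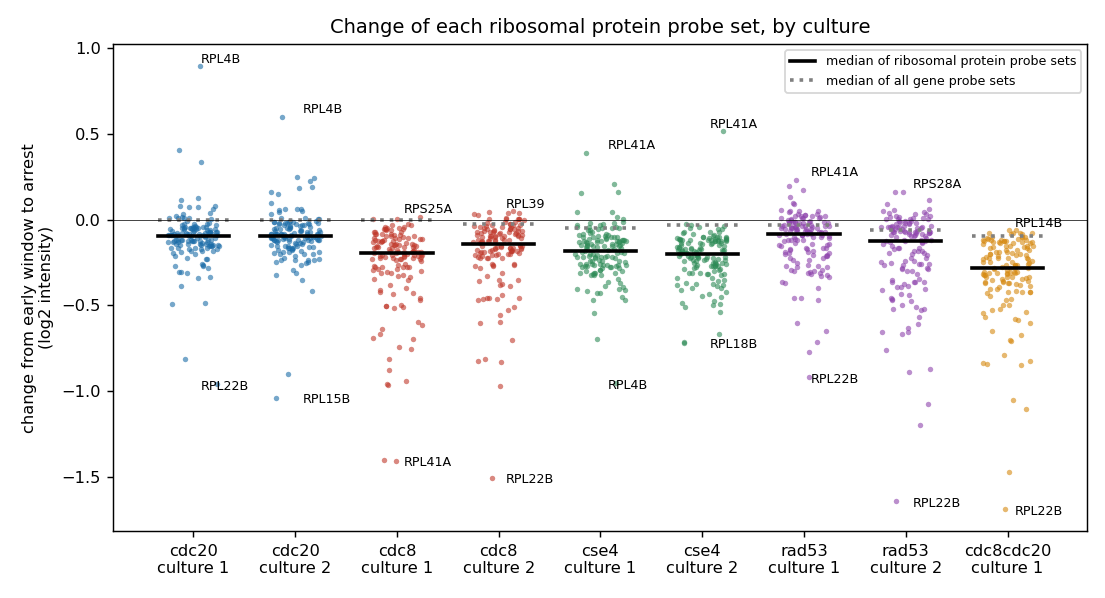
Change from the early to the arrest window (log2, y axis) of each of the 142 members in each of the 9 cultures (x axis), with the culture's median as a solid line and that of all gene probe sets as a dotted line. Member medians lie below 0 in all 9 cultures, and a small number of members fall by more than 1.

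Measured from the plateau that followed the first rise, the count in cdc8 was larger. This early window (60 to 120 min in cdc20 and cdc8, 105 to 150 min in cse4, 54 to 126 min in rad53 and cdc8cdc20) was chosen after seeing the low first arrays. From it, 128 of 142 members (90.1%) were lower in cdc8, with a median of -0.33, where 31.4% of all gene probe sets were lower. Leaving out cdc8 replicate 1 gave 83, and leaving out replicate 2 gave 75. In cdc20, 51 of 142 members were lower, a share near the 31.1% of all probe sets. Lower in the other strains were 69 of 142 in cse4 (34.1% of all probe sets), 61 in rad53 (28.9%) and 65 in cdc8cdc20 (27.6%). In no strain was a member higher, and the share of all probe sets that were higher is not given here. These counts were 13 or 12 in cdc20 without replicate 1 or 2 of cdc20, 38 or 28 in rad53 without replicate 1 or 2 of rad53, and 40 in cse4 without cse4 replicate 2. Single cultures also weighed on the counts from the first window. The cdc8 count was 20 or 13 without replicate 1 or 2 of cdc8, the rad53 count 31 or 9 without replicate 1 or 2 of rad53, and the cdc20 count, both directions together, 3 or 6 without replicate 1 or 2 of cdc20.

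The members with the largest falls recurred in several strains. RPL22B (YFL034C-A), a copy of the gene for a large-subunit protein that binds ribosomal RNA, had early intensities of 11032 and 10063 in the cdc20 cultures and 5856 and 5367 at arrest. In cdc8 it went from 8067 and 8186 to 3002 and 2684. In rad53 it went from 4863 and 6347 to 2492 and 2043, and in the cdc8cdc20 culture from 8383 to 2638. In cse4 it went from 4230 and 6390 to 3542 and 4705. Intensity was lower at arrest in all 9 cultures. Taken across the 2 cultures of a strain, early and arrest values did not overlap in cdc20, cdc8 or rad53. In cse4 they did, though each culture fell from its own early value (-0.26 and -0.43). The change of RPL22B was -0.93 ± 0.15 (log2 ± SE) in cdc20 (adjusted p = 0.0011), -1.45 ± 0.15 in cdc8 (0.00024) and -1.28 ± 0.15 in rad53 (0.00028). In cdc8cdc20, which has no replicate, it was -1.69. In cse4 it was -0.35 and was not called (adjusted p = 0.077). The difference in change between cdc8 and cse4 was itself called for RPL22B (-1.10 ± 0.21, adjusted p = 0.0061).

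RPS27A (YKL156W) encodes a small-subunit protein with a zinc-finger fold. Its early intensities were 20518 and 18105 in cdc20, 15514 and 15652 in cdc8, 13468 and 18392 in cse4, 14066 and 14633 in rad53 and 15790 in cdc8cdc20. At arrest they were 14711 and 13611, 7943 and 8741, 10089 and 13027, 11866 and 10677, and 7352 in the same order. The value was lower at arrest in all 9 cultures, and the lowest was that of cdc8cdc20. The change was -0.45 ± 0.09 in cdc20 (adjusted p = 0.0025) and -0.89 ± 0.09 in cdc8 (0.00018). In cdc8cdc20, which has no replicate, it was -1.11.

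RPS9A, whose product sits near the decoding centre of the small subunit, fell in cdc20 (-0.42, log2), cdc8 (-0.96) and rad53 (-0.90). RPS7B, a small-subunit gene, fell in cdc20 (-0.33) and cdc8 (-0.88). RPL18B, whose product belongs to the large subunit, fell in cse4 (-0.59), rad53 (-0.76) and cdc8cdc20 (-1.47) on its own probe set. Its shared probe set differed from that one in change by a mean absolute 0.58. RPS22B, RPS11A and RPL13A fell in cse4 (-0.70, -0.51 and -0.48), and RPL9B and RPS28B in rad53 (-0.83 and -0.76). All these passed the test, at adjusted p between 0.00015 and 0.029. The members lower in all 5 strains numbered 10 and were RPL13A, RPL17B, RPL31B, RPL33B, RPL34A, RPS11A, RPS18B, RPS27A, RPS7B and RPS9A. That is 7.04% of the members, beside 6.6% of all gene probe sets. Lower in no strain were 49 members (34.5%), near the 36.5% of all gene probe sets. For the settings that follow, the share of all gene probe sets is not given. Without either cdc20 culture the number lower in all 5 fell to 1, without cdc8 replicate 1 or rad53 replicate 2 it was 5, and from the plateau window it was 28.

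**Figure D3:**
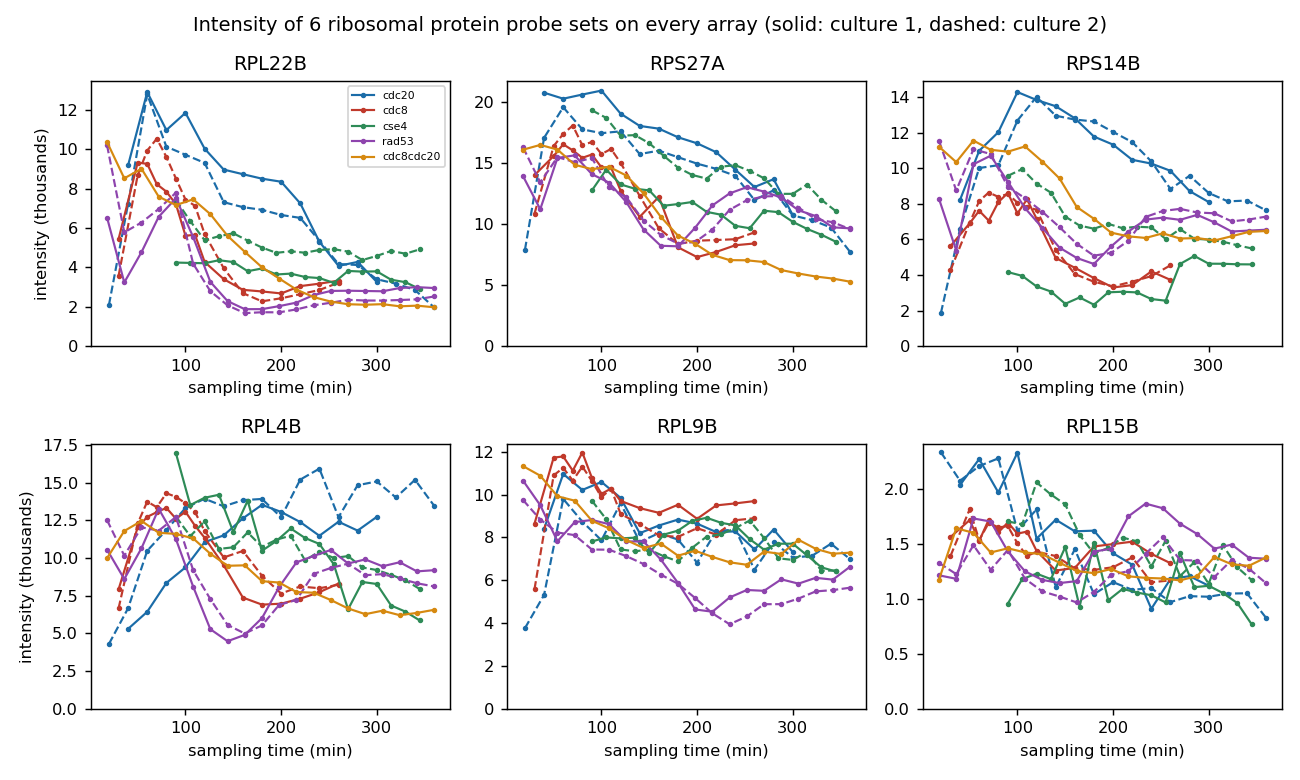
Intensity on every array (y axis, linear) against sampling time in min (x axis) for RPL22B, RPS27A, RPS14B, RPL4B, RPL9B and RPL15B, with 1 line per culture coloured by strain. RPL22B declines more in the 4 dextrose strains than in cse4, RPL4B rises only in the 2 cdc20 cultures between the early and arrest windows, and RPL15B falls most in cdc20.

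Some members went against the group. RPL4B (YDR012W) encodes a large-subunit protein that lines the exit tunnel for new protein chains. Its intensity went from 6694 and 9670 to 12228 and 14274 in the cdc20 cultures. It went from 11429 and 11514 to 7445 and 8161 in cdc8, from 14818 and 12209 to 7695 and 9352 in cse4, from 10841 and 11336 to 9621 and 8405 in rad53 and from 11974 to 7536 in cdc8cdc20. Both cdc20 cultures rose, and the other 7 fell. The change of RPL4B was 0.75 ± 0.15 in cdc20 (adjusted p = 0.0026) and -0.67 ± 0.15 in cse4 (0.0047). The differences in its change against cdc20 were -1.41 ± 0.21 for cse4 (adjusted p = 0.0014), -1.26 ± 0.21 for cdc8 (0.0027) and -1.04 ± 0.21 for rad53 (0.0033). Both rad53 cultures passed through a low of RPL4B (4483, 144 min, and 4991, 162 min) and stood at 9193 and 8113 at 360 min. The shared probe set of its paralog RPL4A, which may also bind RPL4B transcript, rose by 0.31 ± 0.08 in cdc20 (adjusted p = 0.012). RPL15B (YMR121C), the second copy of an essential large-subunit gene, went from 2094 and 2189 to 1206 and 1067 in cdc20 and from 1541 and 1328 to 1718 and 1360 in rad53. Its fall in cdc20 was called (-0.92 ± 0.12, adjusted p = 0.00032), as was its difference in change between rad53 and cdc20 (1.03 ± 0.17, adjusted p = 0.0013).

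Levels in the arrest window were compared next, to ask whether the type of arrest sets the level of these transcripts. Against cdc20, 46 of 142 members (32.4%) were lower and 0 higher in cdc8, where 33% of all gene probe sets were lower and 19.1% higher, so the lower share was that of the background. The median difference over the members was -0.20, and -0.16 over all probe sets. In cse4 against cdc20, 16 members were lower and 1 higher, beside 27.1% and 17.7% of all. In rad53 against cdc20, 26 were lower (18.3%) and 0 higher, beside 24.2% and 18.6%. Between cdc8 and cse4, 17 were lower in cdc8 (12.0%) and 0 higher, beside 19% and 17.3%. Between rad53 and cdc8cdc20, which differ in rad53-1, 2 were lower in rad53 and 0 higher, beside 11.7% and 12.6%. That comparison rests on 1 cdc8cdc20 culture. In this main fit the called share of the members was above that of all probe sets in none of the 5 comparisons, in either direction. A member not called may still differ by the size of the medians. Leaving out single cultures moved these counts: 17 to 23 were called between cdc8 and cdc20 without 1 culture of either strain, 4 or 5 between cse4 and cdc20 without a cdc20 culture and 34 without cse4 replicate 2, 1 or 2 between cdc8 and cse4 without a cdc8 culture and 42 without cse4 replicate 1, and 4 to 11 between rad53 and cdc20 without 1 culture of either strain.

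Within these comparisons a few B copies stood out. RPS14B (YJL191W) is a small-subunit gene whose product can bind and repress its own pre-mRNA. Its arrest intensity was 10136 and 10470 in cdc20, 3697 and 3818 in cdc8, 4354 and 6032 in cse4, 6702 and 6755 in rad53 and 6209 in cdc8cdc20. The cdc20 cultures were above all others, and the cdc8 cultures below all others. RPS14B was lower in cdc8 than in cdc20 (-1.45 ± 0.16, log2 ± SE, adjusted p = 0.00051) and lower in cse4 than in cdc20 (-1.02 ± 0.16, 0.0029). In cse4 replicate 1 it stepped from 2556 at 255 min to 4621 at 270 min, one of the arrays that stood apart, and was at 4597 at 345 min. Lower in cdc8 than in cdc20 were also RPS7B (-1.09), RPS28B (-1.05), RPL11B (-1.0), whose product joins a ribosomal RNA to the large subunit, and RPL22B (-0.94). RPL22B was also lower in rad53 than in cdc20 (-1.28), with RPS28B (-0.87), RPL9B (-0.71), RPS22B (-0.64) and RPL18B (-0.62). The 2 members lower in rad53 than in cdc8cdc20 were RPL9B (-0.56) and RPS22B (-0.55). In cse4 RPS25B (-0.70), RPL4B (-0.64), RPS7B (-0.60) and RPL13A (-0.54) were lower than in cdc20. Between cdc8 and cse4 the lower members in cdc8 included RPL9A (-0.64), RPS28B (-0.62), RPL22B (-0.53) and RPS7B (-0.49). All these were called, at adjusted p between 0.00068 and 0.046.

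RPL41A was the 1 member called higher in cse4 than in cdc20. Its arrest intensity was 757 and 568 in cse4, 136 and 207 in cdc20, 161 and 150 in cdc8, 165 and 83.1 in rad53 and 84.4 in cdc8cdc20. The 2 cse4 cultures were above all others. The difference was 1.87 ± 0.32 (log2 ± SE) from cdc20 (adjusted p = 0.0034), and cdc8 was lower than cse4 (-2.0 ± 0.32, 0.0031). The probe set is dim and of the shared type, and cse4 is the galactose strain.

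The change itself was called different between strains for few members. The numbers were 16 of 142 between cdc8 and cdc20 (1 higher and 15 lower, beside 42.9% of all gene probe sets in either direction), 11 between cse4 and cdc20 (47.4%), 12 between rad53 and cdc20 (57.3%), 6 between cdc8 and cse4 (36.9%) and 2 between rad53 and cdc8cdc20 (26.8%). The 3 comparisons against cdc20 share its cultures. In them RPL18B differed from cdc20 by -0.70 in cdc8, -0.62 in cse4 and -0.79 in rad53, at adjusted p of 0.032, 0.045 and 0.014. RPS22B went the other way between cdc8 and cse4 (0.54 ± 0.11, adjusted p = 0.0079). The change was higher in rad53 than in cdc8cdc20 for RPS27A (0.75 ± 0.15, adjusted p = 0.010) and RPS19B (0.40 ± 0.13, adjusted p = 0.050), the 2 members called there.

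Copies of a pair often changed by different amounts. Both copies had a probe set of their own in 47 pairs, and the mean absolute difference in change between the copies had a median of 0.18 over the pairs and ran from 0.02 (RPL43) to 0.92 (RPL22). It was above 0.3 in 13 pairs, and in 17 pairs the same copy fell more in all 9 cultures. These values were not tested. RPL22B fell more than RPL22A in 8 of 9 cultures, with a difference (A minus B) of 1.25 in cdc8, 1.06 in rad53 and 0.09 in cse4. RPS27A fell more than RPS27B in all 9 cultures, with A minus B at -0.88 in cdc8 and -0.99 in cdc8cdc20. RPS28B fell more than RPS28A in 8 cultures, with a difference of 0.76 in cdc8 and 0.94 in rad53 but 0.08 in cdc20. RPS9A fell more than RPS9B in 8 cultures. RPL13A fell more than RPL13B, and RPS7B more than RPS7A, in all 9. The copy that fell more was the A copy in RPS27, RPS9 and RPL13 and the B copy in RPL22, RPS28 and RPS7. In each of these pairs it was also the copy with the dimmer probe set. Mean levels (log2) were 12.09 for RPL22B and 14.23 for RPL22A, and 13.58 for RPS27A and 14.33 for RPS27B. The part of signal level in these differences was not tested.

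**Figure D4:**
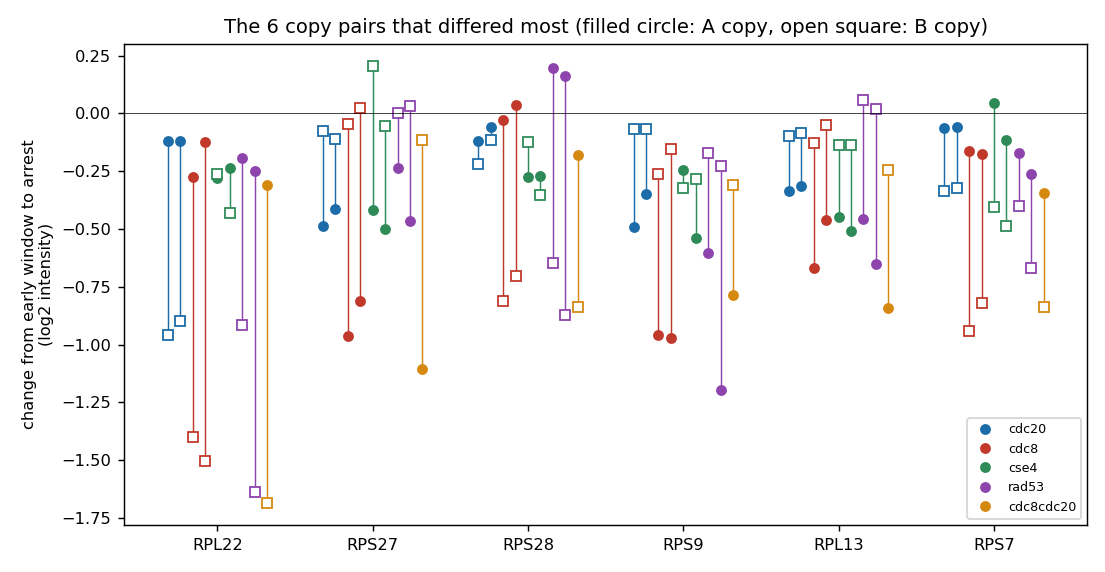
Change from early to arrest window (log2, y axis) in each of the 9 cultures (x axis) for the A copy (filled circle) and the B copy (open square) of the 6 pairs that differ most. RPL22B and RPS27A lie well below their partners in the cdc8 and cdc8cdc20 cultures, and RPL22A and RPL22B lie close together in cse4.

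Over all 160 arrays the members moved largely together. The centred profile of a member correlated with the members' median profile at a median r of 0.86, and 106 of 142 were above 0.8, which describes arrays that share cultures and a normalization. RPS9B (0.97), RPL17B (0.96) and RPL34A (0.96) followed the group most closely. RPL4A (0.28), RPL15B (0.36), RPS25A (0.53), RPL41A (0.54) and RPS27B (0.54) followed it least. For the 20 genes with 2 probe sets, the probe sets correlated at r = 0.51 (RPS23A) to 0.98 (RPS29A), with a median of 0.83. Their mean absolute difference in change was largest in RPL18B (0.58), RPS18B (0.35) and RPL11B (0.27), and smallest in RPS26A (0.015). The values named above for RPL18B and RPL11B are from the probe sets of 1 gene. RPS19B was called between rad53 and cdc8cdc20 on its own probe set only.

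Periodicity was scored with a Lomb-Scargle periodogram over the first 13 time points, with p of at most 0.5 in both cultures. The test period was the centre of the range the study used for Cdc20-depleted cells, and applying it to the other strains was a choice made here. For rad53 cells the study used a wider range, most of which lies below this test period. In cdc8, 138 of 142 members (97.2%) passed, where 57.5% of all gene probe sets did. The first 13 time points of cdc8 span the low start, the rise and the fall. Over all time points 1 member passed, beside 17.3% of all gene probe sets, and at p of at most 0.1, 4 passed, beside 10.4%, so under both settings the members' share was below the background. RPS22B, RPS11B, RPL14B, RPL36A and RPS10B had the smallest p in cdc8, with 0.064 and 0.086 for RPS22B in the 2 cultures by the exponential approximation of the periodogram. In cdc20, 0 members passed (4.27% of all). In cse4, only RPL9B passed (6.86% of all), with p = 0.13 in both cultures. In rad53, only RPL15B passed (13.6% of all), with p = 0.10 and 0.38. With a linear trend removed first, 38 members passed in rad53 and 10 in cse4, beside 42.8% and 23.4% of all. With no trend removed and any period in the study's range for rad53 cells, 5 members passed in rad53, beside 21.9% of all. In rad53 the lows of RPL22B (1878 and 1675, both at 162 min) and of RPL4B were followed by higher values at 360 min (2952 and 2523 for RPL22B).

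Other genes of the ribosome's supply line moved more. Of 22 ribosome biogenesis genes, which make and process ribosomal RNA, 20 fell in cdc20, 20 in cdc8, 21 in cse4, 16 in rad53 and 22 in cdc8cdc20, with median changes of -0.66, -0.65, -0.83, -0.48 and -1.27. Of all gene probe sets, 31.4%, 25.5%, 33.1%, 32.2% and 29.8% fell in these strains in the same order. The shares of all that rose were 31.6%, 25%, 29.3%, 26.4% and 23.7%. NOP56, a core protein of the particles that modify ribosomal RNA, fell in cdc20 (-0.65) and cdc8cdc20 (-1.17). NOP1, the methyltransferase of those particles, was the 1 gene of this list that rose in cdc20, by 0.43. All 22 were lower at arrest in cdc8 than in cdc20, with a median of -1.14. The 7 dedicated chaperones of ribosomal proteins fell together in cdc20, cdc8 and cdc8cdc20 (7 of 7 each), and 5 of 7 fell in cse4 and rad53. SYO1, which carries large-subunit proteins into the nucleus, fell in all 5 strains (-0.59 in cdc8 to -1.45 in cdc8cdc20). The stalk of the ribosome and ASC1, which are also parts of the ribosome, had 6 probe sets. Their median changes were 0.07 in cdc20, -0.07 in cdc8, -0.11 in cse4, -0.06 in rad53 and -0.12 in cdc8cdc20. Of them, 1 was called lower in cse4 (RPP2B, -0.20) and 1 in rad53 (ASC1, -0.22).

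Of 13 regulators of ribosomal protein genes, 4 fell in cdc20 (30.8%), 8 in cdc8 (61.5%), 7 in cse4 (53.8%), 8 in rad53 (61.5%) and 9 in cdc8cdc20 (69.2%). The cdc20 share was near the 31.4% of all gene probe sets that fell there. Regulators that rose numbered 2 in cdc20, 2 in cdc8, 1 in cse4, 2 in rad53 and 0 in cdc8cdc20. RAP1, which binds the promoters of most members, fell in all 5 strains (-0.42 in cse4 to -1.07 in cdc8cdc20). So did IFH1, the coactivator (-0.54 in cse4 to -1.47 in cdc20), and TOD6, a repressor of ribosome biogenesis genes (-0.96 in cse4 to -2.25 in cdc8cdc20). SFP1 fell in 4 strains and in cdc20 stood at -0.30 (adjusted p = 0.054). SCH9, the kinase that links nutrient signals to ribosome production, rose in cdc20 (1.33) and fell in cdc8 (-0.44). Of 20 translation factors, 5 fell (25%) and 4 rose (20%) in cdc20, both below the shares of all gene probe sets. In cse4 and in cdc8cdc20, 13 fell (65%). In cdc8, 10 fell (50%) and 1 rose. In rad53, 3 fell (15%) and 2 rose (10%), both below the shares of all gene probe sets. EFT2, an elongation factor gene, rose by 0.46 in cdc20. Of 43 mitochondrial ribosomal protein genes, which serve the separate ribosome of mitochondria, 20 rose in cdc20, 4 in cdc8, 28 in cse4, 35 in rad53 and 17 in cdc8cdc20, and at most 2 fell in any strain. Beside these, of 10 environmental stress genes 9 rose in cdc8, rad53 and cdc8cdc20, 7 in cse4 and 5 in cdc20, where 4 fell, and all 10 were higher at arrest in cdc8 and in cse4 than in cdc20. Their part in the members' changes was not tested.

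**Figure D5:**
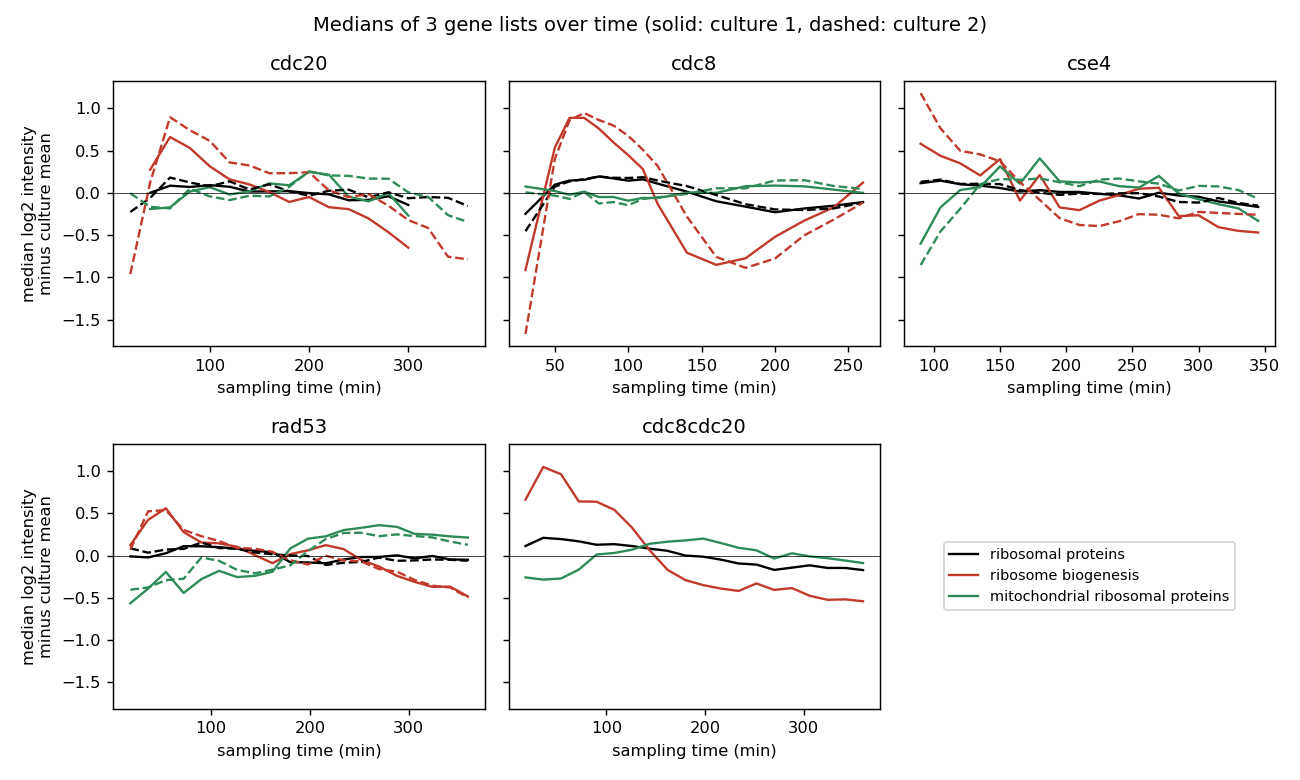
Median of centred log2 intensity (y axis) against sampling time in min (x axis) for the 142 ribosomal protein probe sets, 22 ribosome biogenesis genes and 43 mitochondrial ribosomal protein genes in each culture. From its early high the biogenesis line falls furthest in each strain, turning up again in cdc8 after 160 to 180 min, while the ribosomal protein line moves less and the mitochondrial line does not share the early high.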

How the data were processed

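RNA of 160 time points was measured on Affymetrix Yeast Genome 2.0 arrays. The authors deposited linear intensities made with affy 1.32.1 (invariant-set normalization, perfect-match probes, dChip model, no background correction), normalized together with arrays of an earlier study that were not used here. For each culture, log2(intensity + 1) was averaged over the early and arrest windows, and limma 3.58.1 (R 4.3.3) was fitted to the 9 cultures over 5716 gene probe sets (4 residual degrees of freedom), after tests on simulated data. With 200 changed probe sets, changes of 0.25 (log2) were recovered at 0% in every comparison simulated. Changes of 0.5 were recovered at 0% (arrest level, cdc8 against cdc20), 77% (change, cdc8) and 5% (change, cdc8cdc20). Changes of 1 were recovered at 89.5%, 99.5% and 94.5%. Many more probe sets were called in the real data, so these shares do not give the recovery there. Adjusted p is Benjamini-Hochberg. Control probe sets (184) were left out. Symbols came from the platform annotation, with 12 updated through RefSeq. Periodograms used scipy 1.17.1. The last cse4 time point is labelled 245 or 345 min in different fields, and 345 was used. Named genes were the up to 5 largest calls per direction whose cultures did not overlap, the least and most typical profiles, the 6 most different paralog pairs, the lowest and highest levels and the smallest periodogram p; others were chosen after their values were seen. The members and lists were chosen with earlier results of these data known. The number of arrays and cultures limits the precision. Alternatives covered windows, scaling, pseudocount (32), variance prior, dim probe sets, samples in the fit, replicate block and single cultures.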

Additional observations from a re-analysis of the deposited data

Results flagged for a closer look

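The change from the early to the arrest window was called different between 2 strains, by the test of the difference itself, for some members in each of 5 comparisons (limma, adjusted p at most 0.05 over all gene probe sets). Between cdc8 and cdc20 there were 16 such members, with the most negative differences for RPL4B, RPL41A and RPS14B and the 1 positive difference for RPL15B. Between cse4 and cdc20 there were 11, with RPL4B (-1.41) and RPL15B (0.68) at the ends. Between cdc8 and cse4 there were 6, with a lower change in cdc8 for RPL41A, RPL22B, RPS28B, RPS7B and RPS27A and a lower change in cse4 for RPS22B. Between rad53 and cdc8cdc20 there were 2, RPS27A and RPS19B. Between rad53 and cdc20 there were 12, and the change of RPL39 (0.29) and RPL15B (1.03) was higher in rad53. Each count was a smaller share of the members than the share of all gene probe sets called in the same comparison.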

How the results depend on the processing

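Of the 50 tests of named genes none changed direction under any alternative. Leaving out each culture in turn lost such a call 45 times, and a strain then left with 1 culture was assumed to vary like the others. Members called at arrest then ranged over 17 to 64 (cdc8 against cdc20), 4 to 34 (cse4 against cdc20), 1 to 42 (cdc8 against cse4), 0 to 4 (rad53 against cdc8cdc20) and 4 to 43 (rad53 against cdc20). Calls of a difference in change ranged over 1 to 25, 3 to 13, 2 to 10, 1 to 6 and 5 to 23 in that order. Calls of a change ranged over 3 to 30 (cdc20), 13 to 73 (cdc8), 43 to 63 (cse4), 9 to 55 (rad53) and 43 to 82 (cdc8cdc20), the median change in cdc8 over -0.20 to -0.14, and periodic members over 2 to 9 in cse4 and 3 to 27 in rad53.

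The periodic counts without a culture of the strain ask for p of at most 0.5 in 1 culture only. They can therefore only stay or rise and are no range around the main count. In cse4 and rad53 the members' share was below that of all gene probe sets each time. With the last 5 time points as the arrest window, members called at arrest numbered 24, 10, 4, 1 (median 0.15) and 5 in the order above. A difference in change was then called for 9 (cdc8 against cdc20) and 10 (rad53 against cdc8cdc20), and a change for 48 in cdc20 (median -0.13) and 30 in rad53, with medians of -0.23 in cse4 and -0.34 in cdc8cdc20. With 180 to 260 min in every strain, 8 were called between cse4 and cdc20. With the first 2 time points as the early window, 9 were called in cdc20, 13 in cdc8 (median -0.016), 23 in rad53 (median -0.072) and 31 in cdc8cdc20 (median -0.25), and 5 for the difference between cdc8 and cdc20. From the plateau, 51 were called in cdc20 (median -0.13) and 128 in cdc8 (median -0.33), the medians were -0.16 in cse4, -0.15 in rad53 and -0.24 in cdc8cdc20, and the differences gave 49 (cdc8 against cdc20), 5 (cse4 against cdc20) and 32 (cdc8 against cse4). Dropping the 3 cse4 arrays as well gave 6 and 30 for the last pair. Under quantile normalization the median changes were -0.12 in cdc8, -0.15 in cse4 and -0.22 in cdc8cdc20, and 4 differences were called between rad53 and cdc8cdc20. A robust trended prior called 71, 30, 39 and 4 members at arrest in the first 4 comparisons, and 4 differences in change between rad53 and cdc8cdc20. For these alternative counts at arrest or of a change, the share of all gene probe sets is not given here. They are therefore not set against a background. Fitting only the strains compared called 3 (cse4 against cdc20) and 2 (cdc8 against cse4). A pseudocount of 32, or leaving out dim probe sets, called 4 at arrest between rad53 and cdc8cdc20. Periodic members in cdc8, cse4 and rad53 numbered 1, 0 and 0 over all time points and 4, 0 and 0 at p of at most 0.1. With the trend removed 138 passed in cdc8, 10 in cse4 and 38 in rad53, and with any period in a range around the test period 139, 4 and 5. Except where a count falls because samples or time points were removed, the cause was not tested.

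Replicate numbers do not pair the cultures: deviations of same-numbered cultures correlated at -0.28 to 0.21 in arrest level and -0.05 to 0.10 in change. With the number as a replicate block, 8 members were called at arrest between cdc8 and cse4 and 0 between rad53 and cdc8cdc20, and no other count moved by over 1.5 times. The 10 members lower in all 5 strains became 17 with the last 5 time points, 1 with the first 2, 28 from the plateau and 1 to 13 without single cultures. The counts from the plateau ranged over 12 to 58 (cdc20), 75 to 132 (cdc8), 40 to 69 (cse4), 28 to 67 (rad53) and 45 to 70 (cdc8cdc20) without single cultures.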
